A study of Mus musculus with 5 samples.

Results

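Akt1, Akt2, Pik3ca, Pik3cb, Pik3r1, Phlda1, Phlda3 and Pdk1 are 8 of the 22180 mouse genes measured on 5 arrays of mammary epithelial cells. The set groups core genes of phosphoinositide 3-kinase (PI3K) and AKT signalling with related names. It was picked because Akt1 and Phlda1 read higher on both knockout arrays. The contrast between knockout and wild type therefore chose the genes, and their values in it are given below as a description without a test. For each gene the probe set (the group of array probes summarised into 1 value) annotated to that gene alone was used. Of the 8 genes, 7 had 1 such probe set, and for Pdk1, which had another, the brighter was taken.

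The knockout group holds 2 arrays of MMTV-Cre+/Mmp14(f/f) mice, in which the mammary tumour virus promoter drives the Cre recombinase and both Mmp14 alleles are floxed. The wild-type group holds 3 arrays of Mmp14(f/f) littermates without Cre, so every animal carries the floxed alleles. All mice were on a congenic FVB/NJ background and 4 weeks old. The cells came from collagenase-digested inguinal glands without the lymph node, with a centrifugation step to remove stroma. The labels call the samples biological replicates but leave unsaid if the RNA of an array is from a single mouse or from pooled mice. The p-values therefore speak only of the spread between these samples. They name no control with Cre and unfloxed Mmp14.

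Class I PI3K is a dimer of a catalytic and a regulatory subunit that makes the membrane lipid PIP3 when growth factor receptors are active. PIP3 recruits AKT kinases through their pleckstrin homology (PH) domain, and there AKT is phosphorylated by the kinase encoded by Pdpk1 and by mTOR complex 2. Active AKT supports survival, growth and glucose use, and keeps FOXO transcription factors out of the nucleus. In the mammary gland the pathway acts in ductal growth, alveolar differentiation and involution. Much of it is switched by phosphorylation, which RNA levels do not measure.

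Values are log2 signals, in which 1 unit is a 2-fold difference. Every mean ± SD is over the n = 2 knockout or the n = 3 wild-type arrays, and differences are knockout minus wild type. The number of arrays limits the precision. The median probe set read 4.24 to 4.29 on each array. Exact ties between arrays are common, and 68.8% of genes have at least 1 pair of arrays with equal signal to 6 decimals. Among the 8 genes, 5 had such ties, and Phlda1, Phlda3 and Pdk1 had 5 different values. Ties lower the spread of a gene, so a small SD below is not by itself a sign of precision. Mmp14, the targeted gene, read 7.98 and 7.28 on the knockout arrays and 8.15, 8.67 and 7.75 on the wild-type arrays. These groups overlapped (difference -0.56 ± 0.39, SE; limma adjusted p = 0.919). Among arrays of consecutive number, knockout 1 was below wild type 1 and 2 (difference -0.43) and knockout 2 was below wild type 3 (-0.46). Where the probes lie relative to the floxed part is not known here.

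The mean of 11 luminal markers lay between 8.71 and 8.93 on the 5 arrays, and that of 9 basal myoepithelial markers between 7.03 and 7.40. That of 9 fibroblast markers lay between 8.1164 and 8.725, so signal of stromal genes remained in the preparations. With no detection calls, presence of a cell type was not tested. In such bulk preparations fewer cells of a type and less RNA per cell cannot be told apart.

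Akt1 encodes an AKT kinase linked to cell survival and growth, and its upstream sequence is shown because it is the better separated of the AKT genes. RefSeq (GRCm38.p6) lists 2 Akt1 starts on the minus strand of chromosome 12. The first window is chr12:112674277-112674526 and the second is chr12:112674885-112675134, each the 250 bases before a start. Capitals mark the letters TGTTTAC, a FOXO recognition motif, searched on both strands.
Akt1 window 1: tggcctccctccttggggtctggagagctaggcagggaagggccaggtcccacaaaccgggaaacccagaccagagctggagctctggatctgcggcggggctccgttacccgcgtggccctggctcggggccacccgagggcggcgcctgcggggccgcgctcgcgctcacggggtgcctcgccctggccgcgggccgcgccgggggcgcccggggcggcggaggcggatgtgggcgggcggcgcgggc
Akt1 window 2: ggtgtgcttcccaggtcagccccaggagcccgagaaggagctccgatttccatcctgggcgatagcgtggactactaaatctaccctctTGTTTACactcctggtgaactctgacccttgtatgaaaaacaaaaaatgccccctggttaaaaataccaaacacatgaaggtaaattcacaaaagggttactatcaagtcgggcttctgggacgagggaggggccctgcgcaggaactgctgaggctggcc

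The first window is 78.4% G and C and holds 4 matches to the GC box GGGCGG. The second is 52.0% G and C and holds none, but has 1 TGTTTAC that begins 161 bases before the start. Of 13 windows found for 7 of the 8 genes (Phlda1 had none in the table), this was the only one with TGTTTAC, which 3.17% of all 32851 windows hold. The AP-1 motif TGANTCA stood in 1 of the 13, that of Pik3ca (6.75% of all), the cAMP response element TGACGTCA in 0 of the 13 (1.55% of all), and the GC box in 7 of the 13 (32.7% of all). A match describes letters only, and the array does not tell which start was used.

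Akt1 read 7.69 in knockout 1 and 7.64 in knockout 2, against 7.52, 7.52 and 7.48 in wild type 1, 2 and 3. The knockout values were the highest of the 5, and wild type 1 and 2 held exactly the same value. The means were 7.67 ± 0.03 and 7.51 ± 0.02, a difference of 0.16 ± 0.02 (SE), or 1.12-fold. The lowest knockout value was 0.12 above the highest wild-type value.

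Akt2, the AKT kinase most tied to insulin-stimulated glucose uptake, read 7.63 on both knockout arrays, an exact tie. The wild-type arrays read 7.69, 7.58 and 7.48. The knockout value fell inside this range, above wild type 2 and 3 and below wild type 1. The difference was 0.05 ± 0.07 (SE), under the residual SD of 0.08. Whether Akt1 and Akt2 differ in their response was not tested.

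Phlda1 encodes a small PH-domain protein that growth factor signals induce. It read 9.93 in knockout 1 and 9.85 in knockout 2, against 9.68, 9.71 and 9.70 in the wild type. The groups did not overlap, with 0.14 between the lowest knockout and the highest wild-type array, and no value was tied. The means of 9.89 ± 0.06 and 9.70 ± 0.02 differed by 0.20 ± 0.03 (SE), or 1.15-fold.

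Phlda3, a p53-induced PH-domain protein that competes with AKT for membrane lipid, read 6.86 and 6.78 in the knockout and 6.61, 6.76 and 6.74 in the wild type. Both knockout arrays were again above all wild-type arrays, but knockout 2 exceeded wild type 2 by only 0.02. The difference was 0.12 ± 0.06 (SE). Phlda3 stood just inside complete separation, while Akt2, whose lower knockout value lay 0.05 below the highest wild-type value, stood just outside it.

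Complete separation with the knockout higher thus held for 3 of the 8 genes (Akt1, Phlda1 and Phlda3) and with the knockout lower for 0. Over all 22180 genes it held for 2.63% with the knockout higher and for 2.8% with the knockout lower. Among the 6930 genes with 5 different values, as Phlda1 and Phlda3 have, 5.37% had the knockout higher. Since the genes were chosen for this pattern, nothing is read from that count. No gene of the 22180 passed limma's test at an adjusted p of 0.05 (0%), and 288 (1.3%) had an unadjusted p under 0.05.

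**Figure D1:**
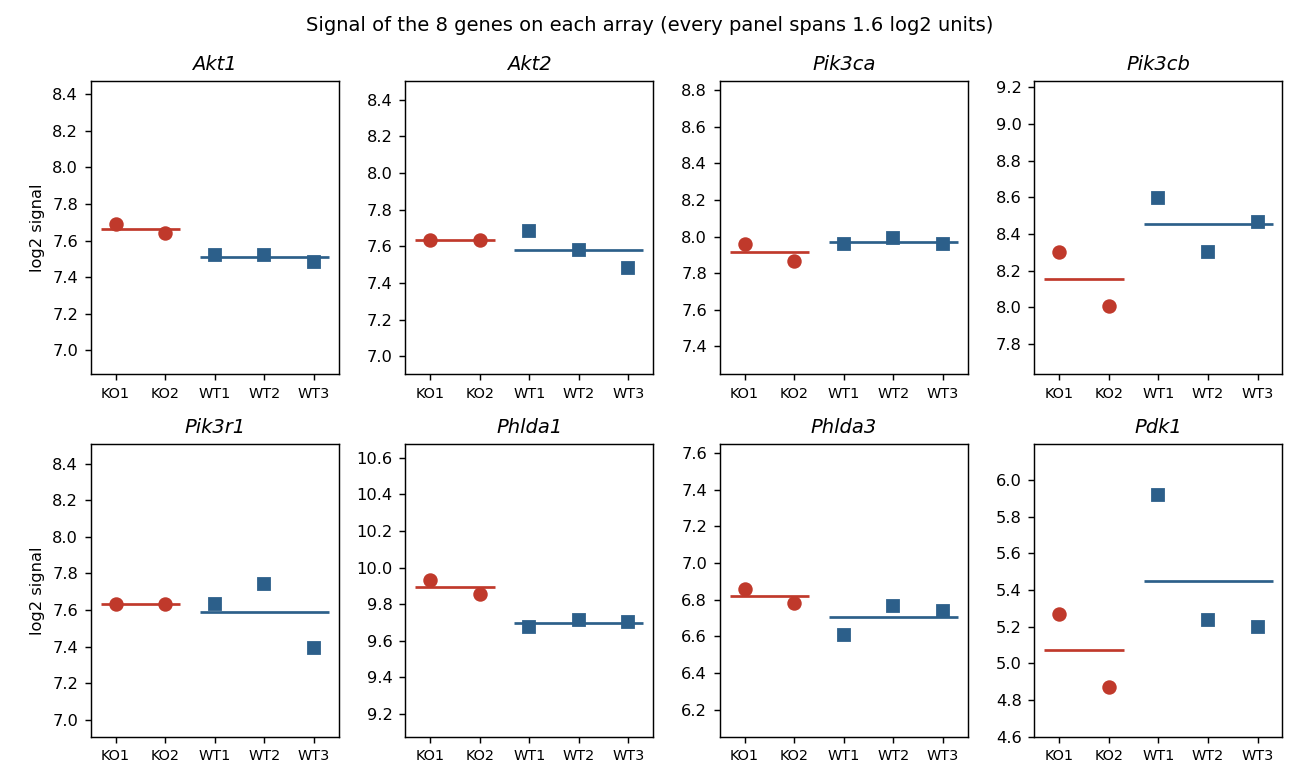
Log2 signal (vertical axis) of each of the 8 genes on knockout arrays KO1 and KO2 (red circles) and wild-type arrays WT1 to WT3 (blue squares), with horizontal lines at the group means; every panel spans the same number of log2 units. Akt1, Phlda1 and Phlda3 have both red circles above all blue squares, whereas Pik3cb and Pdk1 have lower knockout means with overlapping groups.

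The catalytic PI3K subunits had lower means in the knockout, with overlapping groups. Pik3ca, the p110-alpha subunit that is often mutated in breast cancer, read 7.96 and 7.87 in the knockout and 7.96, 7.99 and 7.96 in the wild type. Knockout 1, wild type 1 and wild type 3 held exactly the same value, so the difference of -0.06 ± 0.04 (SE) came from knockout 2. It was -0.01 without that array.

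Pik3cb, the p110-beta subunit, which also responds to G protein-coupled receptors, read 8.30 and 8.01 in the knockout and 8.60, 8.30 and 8.47 in the wild type. Knockout 1 was exactly equal to wild type 2, the lowest wild-type array, and knockout 2 was below every other array. The difference was -0.30 ± 0.14 (SE), which puts the wild-type mean 1.23-fold higher. It was -0.15 without knockout 2 and -0.45 without knockout 1.

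Pik3r1, which encodes p85-alpha and shorter regulatory subunits that stabilise and restrain the catalytic subunits, read 7.635 on both knockout arrays and on wild type 1, an exact 3-way tie. Wild type 2 read 7.75 and wild type 3 read 7.39. The wild-type arrays lay on both sides of the knockout value, and the difference was 0.04 ± 0.12 (SE).

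Pdk1 does not encode the AKT-activating kinase that is often called PDK1, which is Pdpk1. It encodes a mitochondrial pyruvate dehydrogenase kinase, which limits the entry of pyruvate into the citric acid cycle. Pdk1 read 5.27 and 4.87 in the knockout and 5.92, 5.24 and 5.20 in the wild type. Wild type 1 was high and knockout 2 low, while the other 3 arrays were close together, with knockout 1 above wild type 2 and 3. The difference was -0.38 ± 0.30 (SE), and -0.15 without wild type 1. The other Pdk1 probe set (17371847) read 5.17 on 4 arrays and 5.23 on wild type 1, a difference of -0.02, so the probe sets had the same sign and the same highest array but unequal size.

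Over the 5 arrays, the range of the 8 genes ran from 0.13 for Pik3ca to 1.05 for Pdk1, where the median gene had 0.21. Of all genes, 98.2% had a smaller range than Pdk1 and 90.2% a smaller range than Pik3cb. Akt1 (48.5%), Akt2 (47.6%), Phlda1 (58.2%) and Phlda3 (56.8%) were near the middle. The genes that separated the groups thus had ranges close to that of a typical gene, and the more variable genes of the set, Pdk1, Pik3cb and Pik3r1 (72.5%), did not separate them. The median difference of the 8 genes was 0.05, where all genes had 0.00. Of the 8, 5 had a higher mean in the knockout, as 46.2% of all genes had.

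The labels number the arrays, and the numbers form 2 consecutive runs. Knockout 1 with wild type 1 and 2 makes up run 1, and knockout 2 with wild type 3 makes up run 2. What a run stands for is not given. Akt1 differed by 0.17 within run 1 and by 0.16 within run 2, Phlda1 by 0.24 and 0.15, and Phlda3 by 0.17 and 0.04. Complete separation fixes the sign of these 3 genes within both runs, so only their sizes are informative there. Pik3ca (-0.02 and -0.09), Pik3cb (-0.15 and -0.46) and Pdk1 (-0.31 and -0.32) were lower within both. Pik3r1 changed sign, from -0.06 in run 1 to 0.24 in run 2, and Akt2 was 0.00 in run 1 and 0.15 in run 2. Run 2 has 1 array per genotype, and its values have no replicate check.

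**Figure D2:**
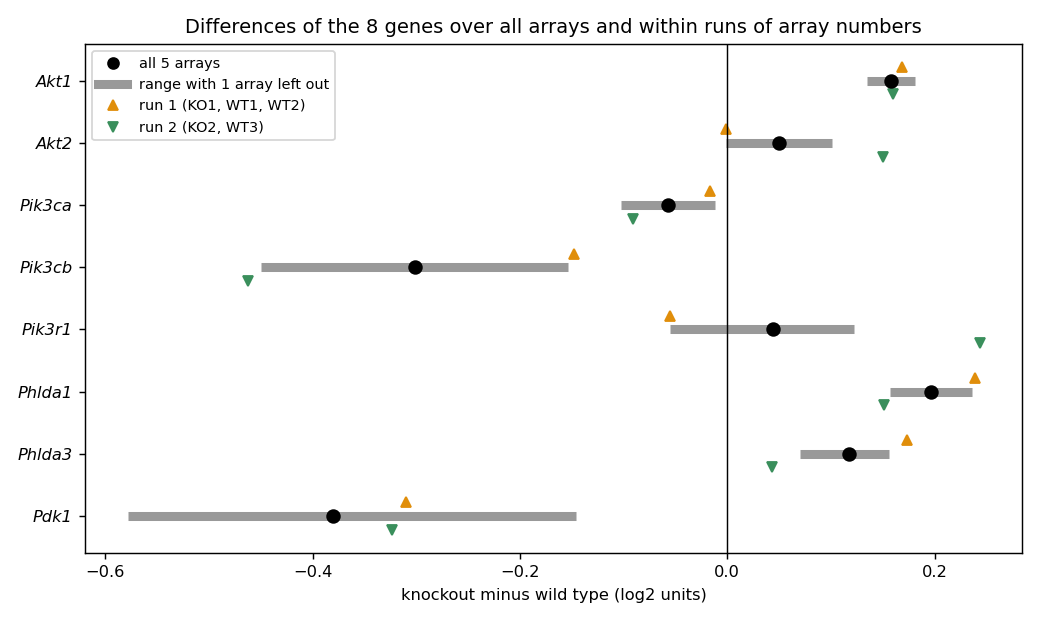
Knockout minus wild type in log2 units (horizontal axis) for each of the 8 genes: black points use all 5 arrays, grey bars span the values with any 1 array left out, upward triangles are run 1 and downward triangles run 2. Akt1 stays between 0.13 and 0.18 and Phlda1 between 0.16 and 0.24 when an array is left out, while Pdk1 runs from -0.58 to -0.15.

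The other genes of the pathway were taken from lists set by role, and 62 of 67 were measured. The rest were not analysed here. None of the 62 passed limma's test in either direction (0 higher and 0 lower), and 0 had an unadjusted p under 0.05, where all genes had 1.3%. The median difference was -0.01, with 21 higher and 38 lower in the mean and 3 equal on all 5 arrays. Both knockout arrays were above all wild-type arrays for 0 of the 62 genes (2.63% of all genes) and below them for 4 (2.8% of all genes). Differences ran from -0.26 to 0.25, so Akt1 and Phlda1 lay within the span of the pathway, near its upper end. Only Irs2 (0.25) was above both, and Ulk1 (0.19) was above Akt1 alone, each with overlapping groups. As Akt1 and Phlda1 were chosen for higher values, nothing is read from that place.

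Among the kinases next to AKT, Pdpk1 read 7.95 on both knockout arrays and 8.08, 7.90 and 7.95 on the wild-type arrays, inside the wild-type range. Mtor, the catalytic subunit of both mTOR complexes, read 6.55 and 6.48 against 6.53, 6.54 and 6.41. Of the mTOR complex 2 subunits, Prr5l differed by 0.16, Prr5 by 0.09 and Mapkap1 by 0.03 in the mean. Rictor (-0.05) and Mlst8 (-0.09) were lower, and the groups of all these genes overlapped. The Prr5 difference came from knockout 1 (3.785), as knockout 2 (3.591) was below the wild-type arrays (3.598). Mapkap1 in knockout 2 was equal to wild type 1 and 3. The median of the 7 measured genes of this group was 0.02, with 4 higher and 3 lower.

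The 8 measured phosphatases of phosphoinositides and AKT, which act against the pathway, all had lower means in the knockout, with a median of -0.05. Of all genes, 49.5% had a lower mean. Set against the wild-type arrays, the mean of the list was -0.07 in knockout 1 and -0.06 in knockout 2, and 0.01, -0.01 and 0.00 on the wild-type arrays, so both knockout arrays were below. Run 1 gave a median of -0.08 and run 2 a median of -0.04, but not every gene was lower within both. Inpp5j (0.06) and Phlpp1 (0.02) were higher in run 1. In run 2 Inpp5d was higher (0.15), and Inpp4b, Inppl1 and Phlpp2 were equal (0.00). Inpp4a and Inpp5k were lower in both. None of the 8 passed limma's test, and all 8 had tied values. Inpp5k, a PIP3 5-phosphatase, was the 1 member of the 8 whose groups did not overlap (knockout lower, as in 2.8% of all genes), at 7.51 and 7.36 against 7.54, 7.59 and 7.54 (limma adjusted p = 0.919). Phlpp2, which dephosphorylates AKT, read 6.48 and 6.55 against 6.55, 6.60 and 6.55, with knockout 2 equal to wild type 1 and 3.

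The remaining class I subunits had a median of -0.01 over 6 genes. Pik3r6, a regulator of the gamma form, was below all wild-type arrays on both knockout arrays (3.91 and 3.81 against 3.96, 3.93 and 3.93), and Pik3cg, its catalytic subunit, differed by -0.15 with overlap. Pik3r2 and Pik3r3 held a single value on all 5 arrays. The 5 class II and III genes had a median of 0.00, with Pik3c2b at 0.14 and Pik3c2g at 0.10. Neither was called.

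Of the 7 adaptors and inhibitors, 5 had lower means (median -0.03). Irs1, an insulin receptor substrate, read 5.10 and 5.22 against 5.22, 5.22 and 5.39, with knockout 2 (5.218) only just below wild type 1 and 2 (5.222). Pik3ap1, an adaptor of immune cells, differed by -0.25. The 8 AKT-binding regulators had a median of 0.00, with Trib1, a pseudokinase, at 0.07 and Aktip at -0.09.

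Of 11 measured AKT substrates, 4 had higher and 7 lower means (median -0.01). Tbc1d4, a Rab GTPase regulator of glucose transport, differed by -0.26, and Akt1s1, an inhibitor of mTOR complex 1, by 0.09. Mdm2, which degrades p53, read 8.90 on 4 arrays and 8.88 on knockout 1. The 10 genes of the mTOR complex 1 arm were evenly divided, 5 and 5, with a median of -0.03. In it Rheb, the GTPase that activates the complex, was below the wild type on both knockout arrays (as in 2.8% of all genes). It read 8.73 and 8.55 against 8.86, 8.74 and 8.74, with knockout 1 (8.733) only just below wild type 2 and 3 (8.740). Deptor, an inhibitor, differed by -0.10.

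**Figure D3:**
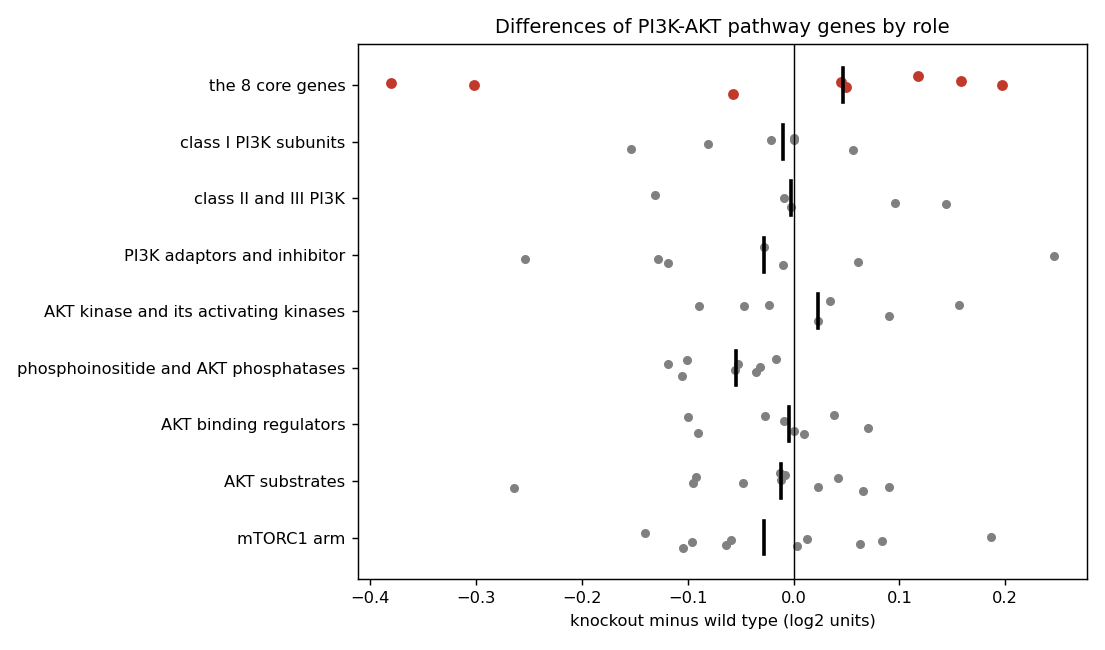
Knockout minus wild type in log2 units (horizontal axis) for the 8 core genes (red) and 62 other pathway genes (grey) grouped by role, 1 point per gene, with black bars at group medians and vertical scatter for legibility only. All 8 phosphatases lie below 0, and the core genes include the lowest value of all the groups, Pdk1 at -0.38.

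Genes downstream of AKT and p53 were set beside the core genes. The 11 measured FOXO targets had a median of -0.02, with 4 higher, 7 lower and 0 called. Ccng2, a cyclin, was at -0.09 and Insr, the insulin receptor, at -0.02. The list mean was 0.06 in knockout 1 and -0.07 in knockout 2, inside the wild-type range of -0.12 to 0.11. The 11 p53 targets, the class to which Phlda3 belongs, also had a median of -0.02, with 5 higher, 6 lower and 0 called. Cdkn1a, a cell cycle inhibitor, read 10.50 and 10.54 against 10.54, 10.65 and 10.54, Sesn2 differed by -0.19 and Zmat3 by -0.08.

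For Pdk1, the enzyme it regulates was listed with its other kinases. Of these 10 genes 7 had lower means and 0 were called (median -0.06). Pdhx, a structural subunit of pyruvate dehydrogenase, was below all wild-type arrays on both knockout arrays (5.20 and 5.29 against 5.33, 5.41 and 5.33; limma adjusted p = 0.919), and Dlat, the acetyltransferase subunit, differed by -0.10.

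Immediate-early genes, which growth factors and tissue dissociation induce, were followed because Phlda1 is itself inducible. Of 16, 14 had higher means (46.2% of all genes had) and 0 were called, with a median of 0.22. Both knockout arrays were above all wild-type arrays for 3 of the 16 (2.63% of all genes) and below them for 1 (2.8% of all genes). Junb, an AP-1 subunit, read 8.184 and 8.45 against 8.001, 8.183 and 8.03, and Ier2 read 6.87 and 7.04 against 6.70, 6.83 and 6.47. The list mean was 0.39 in knockout 2 and -0.01 in knockout 1, and between -0.06 and 0.09 on the wild-type arrays. Run 1 gave a median difference of 0.02 and run 2 of 0.48. Phlda1 read 9.93 in knockout 1 and 9.85 in knockout 2. The part of such induction in the Phlda1 values was not tested.

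Markers of other cells also differed between arrays. The skin keratinocyte list set wild type 1 apart, at 0.87 against -0.48 and -0.45 in the knockout and -0.46 and -0.41 in wild type 2 and 3. All 6 of its markers had lower means in the knockout, and its mean level was 5.26 in wild type 1 and 3.91 to 3.98 on the other 4 arrays. The keratin Krt10, named after its values were seen, read 8.54 in wild type 1 and 5.34 to 5.50 elsewhere. Wild type 1 also had the highest Pdk1 value and the highest mean of the lymphocyte list, though not of every marker in it. The T and B lymphocyte list was at -0.34 in knockout 1 and -0.26 in knockout 2, and at 0.32, -0.09 and -0.23 on the wild-type arrays, with all 8 measured markers lower in the mean. The mean level of these 8 was 4.09 and 4.16 in the knockout and 4.20 to 4.75 in the wild type. The skeletal muscle list was at -0.05 and -0.07 in the knockout, and at -0.02, 0.03 and 0.00 in the wild type, with 6 of 6 markers lower in the mean at levels of 3.63 to 3.73 on all arrays. The endothelial list split the knockout arrays, at -0.44 and 0.21, as the pericyte list did, at -0.23 and 0.28. The fibroblast list was at 0.06 and 0.14 in the knockout, and at -0.12, 0.37 and -0.24 in the wild type. The part of these lists in the values of Akt1, Phlda1 and Pdk1 was not tested. Without wild type 1 the difference was 0.16 for Akt1 and -0.15 for Pdk1.

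**Figure D4:**
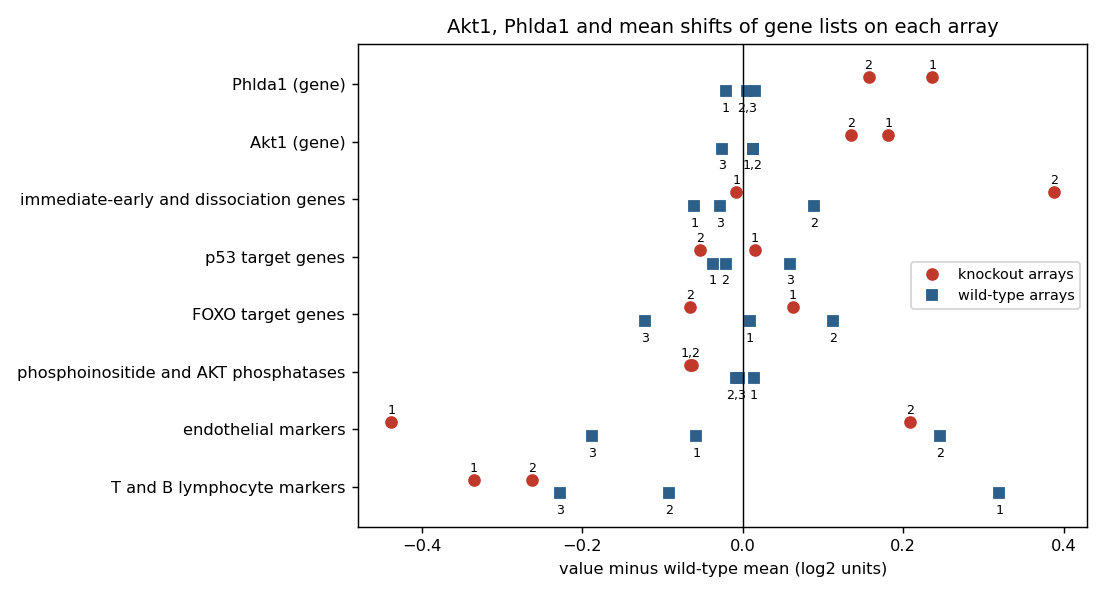
Value minus the wild-type mean in log2 units (horizontal axis) on each array, for Phlda1, Akt1 and the means of 6 gene lists; red circles are knockout and blue squares wild-type arrays, with replicate numbers beside them. Phlda1 and Akt1 have both knockout arrays on the right, the immediate-early list has only knockout 2 there (0.39), and the phosphatase and lymphocyte lists have both knockout arrays leftmost.

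Likeness of pattern was measured as the root-mean-square difference over the 5 arrays, after each gene was centred on its own mean, among 3981 named genes with 5 different values and a mean above the median gene. The gene closest to Akt1 was Dhx37, an RNA helicase, at 0.02 log2 units (5.69 and 5.60 in the knockout, and 5.50, 5.55 and 5.47 in the wild type). Paip2b, a regulator of poly(A)-binding protein, followed at 0.02 and Phlda1 at 0.03. Those closest to Phlda1 were Paip2b at 0.03, Fam214b at 0.03 and Dhx37 at 0.04. Akt1 has tied values and so was not among the genes compared with Phlda1. Since both were picked for the same pattern, their likeness is a description.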

How the data were processed

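Per the labels' protocols, a whole-transcript kit was used on 10 ng of RNA from each of 5 samples. The authors deposited a log2 signal for each probe set. The submitters' processing notes list RMA, which normalises arrays to each other and summarises probes by median polish, and limma, with no version. For the array model and the genome build, the sources used here give nothing. Of 41345 probe sets, 23521 carry 1 gene symbol in the platform annotation, 1814 carry several and 16010 are not listed there. The single-symbol set with the highest mean was kept per gene, leaving 22180 genes. The fit used lmFit and eBayes of limma 3.58.1 (R 4.3.3), two-sided and without covariates, with Benjamini-Hochberg adjustment over all genes and a threshold of 0.05. The SE is limma's moderated SE. The procedure was tested on simulated data without exact ties, in which the changes were larger than any difference of the 8 genes. That test therefore does not cover differences as small as theirs. The 8 genes and all lists were chosen with earlier results of these data known. Of the 200 entries of the pathway, context and marker lists, 189 were measured. Per pathway and context list the 2 members with the largest moderated t are named, besides Pdpk1, Mtor, Mdm2, Cdkn1a, Mmp14 and the 3 genes most like Akt1 and Phlda1. Genes that only the leave-one-out fits bring in (Gab1, Rptor) and the equal-valued Pik3r2 and Pik3r3 are named after their values were seen. So are Inpp4a, Inpp4b, Inpp5d, Inpp5j, Inppl1, Phlpp1, Irs2, Ulk1, Rictor, Mlst8 and Prr5l. The alternatives covered arrays left out, blocks, normalisation, filters, ties and variance models.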

Additional observations from a re-analysis of the deposited data

How the results depend on the processing

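The signs of Akt1, Phlda1 and Phlda3 cannot turn when an array is left out, since their groups do not overlap. With 1 array left out their differences ran from 0.13 to 0.18, from 0.16 to 0.24 and from 0.07 to 0.16. Pik3ca, Pik3cb and Pdk1 stayed lower in the knockout in every alternative that gave a value, some of which leave a gene's difference as it is by construction. Akt2 and Pik3r1 were higher in 13 of 16; the other 3 were run 1 alone, the fit without wild type 3 and the replicate block (0.00 for Akt2, -0.06 for Pik3r1). With 1 array left out, limma called 0 to 1757 genes over all genes (1757 without knockout 1 and 835 without knockout 2) and 0 to 3 pathway genes. The latter were Gab1, Akt1s1 and Rptor without knockout 1 and Prr5 (1 gene) without knockout 2. Of these 4, Gab1, Akt1s1 and Prr5 have a single value on all wild-type arrays, and such a fit takes the spread of the single knockout array from the wild-type arrays. The 8 core genes were chosen on this contrast, so no call is read for them. Every alternative that kept all 5 arrays, and run 1 alone, called 0 genes. The pathway median of -0.01 ran from -0.04 to 0.009 with 1 array left out (-0.04 without wild type 3, 0.009 without knockout 2). With the replicate number as a block it was -0.04, and 0 genes were called. The numbers are shared by only 2 pairs, and the deviations of same-numbered arrays correlated across genes at 0.245 and -0.044. With 2 knockout arrays, the deviations of 1 are those of the other with the sign turned. The values are therefore not separate checks and cannot decide if same-numbered arrays are pairs. Within runs, knockout 1 correlated at 0.245 and 0.044 with wild type 1 and 2, and knockout 2 at 0.261 with wild type 3. The wild-type deviations of a gene also sum to 0. The within-run values are therefore not separate checks either and cannot decide if the runs differ. The cause of the shifts in the pathway median was not tested. Run 2 alone has 1 array per genotype and gave values with no test.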
